A study of Homo sapiens with 6 samples.

Results

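The genes of cholesterol synthesis and of its control by sterol regulatory element binding proteins (SREBPs) were examined in BL-2, an established cell line from Burkitt lymphoma, a B cell cancer, left untreated or exposed for 6 h to lipopolysaccharide (LPS), a cell wall glycolipid of Gram-negative bacteria. The set of 30 genes was listed by function: enzymes of the path to cholesterol, SREBPs and their regulators, fatty acid enzymes under SREBP control, and sterol transporters. A gene was read from the Affymetrix probe set that carries its symbol alone and is brightest on average over the 6 arrays, giving values for 27 of the 30 genes, among 19775 genes with such a probe set. FDFT1, CYP51A1 and FADS1 had no such probe set and were not analysed here. The series holds 3 control arrays and 3 LPS arrays, each from a sample of this single cell line. The LPS dose and the culture conditions are not given in the sources used here, and nothing states that replicates came from separate cultures, so p-values reflect only how these samples differ among themselves, which may be technical. Values are 1 number per probe set and array, read as log2 from their range, so a difference of 1 stands for a 2-fold change.

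Cholesterol is built from acetyl-CoA through mevalonate, isoprenoid pyrophosphates, squalene and lanosterol. Most of these enzymes are transcribed under SREBP2: when sterols in the endoplasmic reticulum run low, SCAP carries the SREBPs to the Golgi, where proteases release their active part, and when sterols are plentiful INSIG proteins hold the complex back. Liver X receptors respond to oxidised sterols in the opposite sense and drive the export pumps ABCA1 and ABCG1 and MYLIP, a ubiquitin ligase that removes lipoprotein receptors.

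The promoters of 5 of these genes are shown to set the sequence beside the expression values. RefSeq promoter windows (build GRCh38.p14) were given for 26 of the 30 genes, 33 windows in all. The 250 bases before each start were searched on both strands for the sterol element letters TCACNCCAC, the CCAAT box, the E-box CACGTG and the Sp1 letters GGGCGG, which do not contain one another. Of the 26 genes with a window, SREBF2 alone held the sterol element letters. HMGCS1, LSS, HSD17B7 and ABCA1 were chosen after their values were seen, as the genes with a large spread between arrays or a large difference after LPS. The windows lie at chr22:41832855-41833104 on the plus strand (SREBF2), chr5:43313413-43313662 on the minus strand (HMGCS1, the more upstream of its 2 starts), chr21:46228775-46229024 on the minus strand (LSS), chr1:162790452-162790701 on the plus strand (HSD17B7) and chr9:104928156-104928405 on the minus strand (ABCA1). Each is written 5′ to 3′ towards the gene, with matches to any of the searched letters, or to their reverse complement, in capitals.
SREBF2: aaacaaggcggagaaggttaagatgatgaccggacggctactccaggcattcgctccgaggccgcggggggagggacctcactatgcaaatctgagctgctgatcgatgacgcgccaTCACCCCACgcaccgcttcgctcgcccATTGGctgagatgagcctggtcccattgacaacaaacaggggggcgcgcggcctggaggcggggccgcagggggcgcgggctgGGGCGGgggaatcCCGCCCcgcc
HMGCS1: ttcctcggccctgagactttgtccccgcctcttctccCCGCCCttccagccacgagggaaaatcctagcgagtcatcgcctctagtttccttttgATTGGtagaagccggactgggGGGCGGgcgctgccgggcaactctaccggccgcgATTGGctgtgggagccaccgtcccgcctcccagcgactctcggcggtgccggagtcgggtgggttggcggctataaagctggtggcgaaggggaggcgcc
LSS: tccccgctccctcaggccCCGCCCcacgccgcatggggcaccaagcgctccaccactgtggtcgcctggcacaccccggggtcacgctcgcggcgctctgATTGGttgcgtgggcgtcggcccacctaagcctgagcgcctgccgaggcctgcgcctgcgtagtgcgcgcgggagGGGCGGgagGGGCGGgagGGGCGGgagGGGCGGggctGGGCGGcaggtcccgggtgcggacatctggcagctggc
HSD17B7: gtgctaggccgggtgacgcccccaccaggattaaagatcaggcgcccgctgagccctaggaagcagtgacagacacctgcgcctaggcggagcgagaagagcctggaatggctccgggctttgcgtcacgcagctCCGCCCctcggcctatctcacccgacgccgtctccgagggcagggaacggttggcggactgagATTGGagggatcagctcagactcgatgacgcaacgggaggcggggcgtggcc
ABCA1: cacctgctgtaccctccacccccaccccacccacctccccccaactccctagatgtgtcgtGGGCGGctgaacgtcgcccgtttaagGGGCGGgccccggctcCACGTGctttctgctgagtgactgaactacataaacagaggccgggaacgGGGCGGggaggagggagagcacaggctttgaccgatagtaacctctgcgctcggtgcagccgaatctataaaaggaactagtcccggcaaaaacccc

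In SREBF2 the sterol element match begins 133 bases before the start and is followed by 1 CCAAT box. HMGCS1 holds 2 CCAAT boxes and LSS holds 1 CCAAT box beside 6 matches to the Sp1 letters. ABCA1 holds 1 E-box and no CCAAT box. Across the set, 19 of the 33 windows held a CCAAT box (57.6%), and among the cholesterol synthesis enzymes 15 of 20 windows did (75%), where 32% of all 35116 windows given did. Some genes have several windows. Counted by gene, a CCAAT box was found in 17 of 26 genes of the set, 13 of 15 enzymes and 10102 of all 27305 genes. The Sp1 letters were in 90.9% of the set's windows and 42.6% of all, the E-box in 15.2% (4 genes) and 6.34%, and the sterol element letters in 3.03% and 0.883%. That 3.03% is 1 window, that of SREBF2, and 0 of the 20 enzyme windows held the sterol element letters. All these counts are matches of letters and say nothing about which factor was bound. The windows of all genes were not matched to the set in expression level or base content.

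After LPS, 0 of the 27 genes passed the limma test by their representative probe set (Benjamini-Hochberg adjusted p under 0.05), where 0.389% of all 19775 genes did. At an unadjusted p under 0.05 there were 5 genes higher and 1 lower, against 4.97% and 4.59% of all genes. All but FADS2 of the 27 lay above the median level of all genes, and among the 9887 genes above it 8.1% were higher at that unadjusted p. Differences above 0 were found in 21 of the 27 genes (77.8%), against 50.8% of all genes and 54.7% of those above the median level, and their median was 0.09 against 0.0016 over all genes. Among the 16 measured enzymes of cholesterol synthesis, 13 lay above 0 with a median of 0.13. The genes were read on the same 6 arrays, so these counts do not come from independent observations. With single arrays left out, from 18 (without control 1) to 22 (without LPS 1) of the 27 genes lay above 0. The values of the groups did not overlap in 6 of the 27 genes (22.2%), where 15.7% of all genes were separated. Of the 9887 genes above the median level, 7830 overlapped and the rest were separated. That separated share is larger than over all genes and close to that of the 27 genes. SQLE, LSS, HSD17B7 and EBP were higher on every LPS array than on every control array, and PMVK and ABCA1 were lower on every LPS array. By direction, 7.95% of all genes were separated upward and 7.8% downward. Of the 9887 genes above the median level, 1128 were separated upward and 929 downward. In RNA from whole cultures, a change in the share of cells that express a gene and a change in its RNA per cell cannot be told apart.

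**Figure D1:**
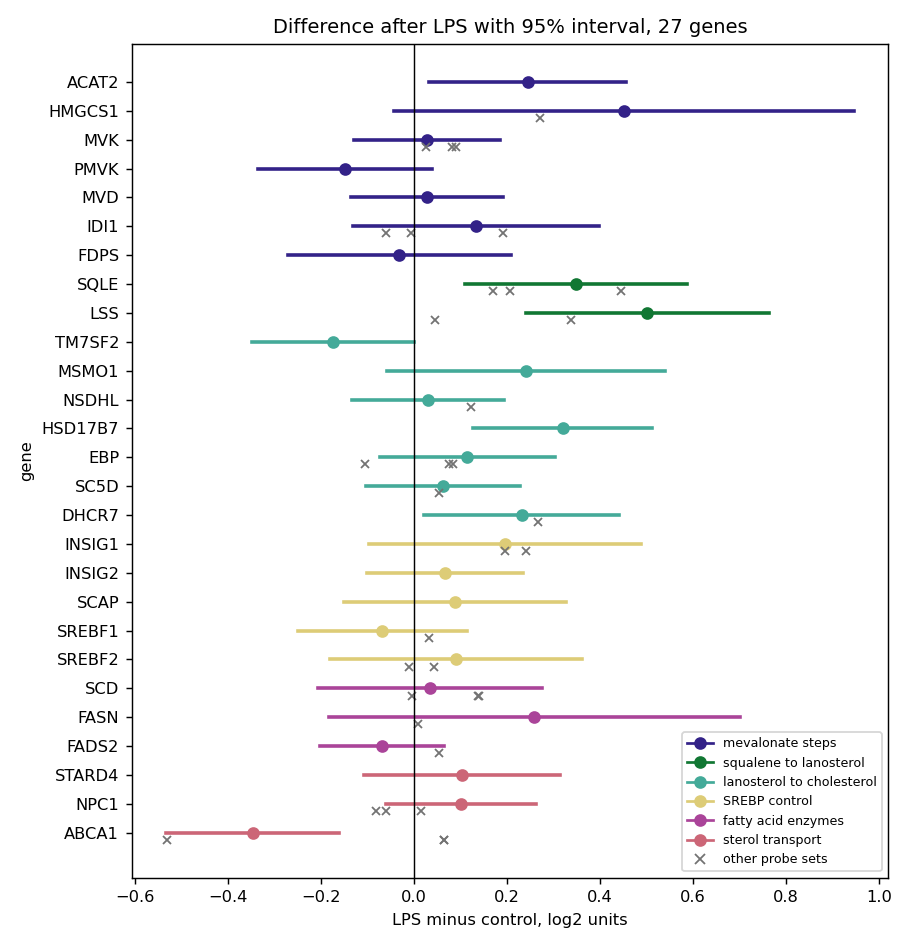
LPS minus control of the 27 genes on the log2 scale (x axis), with points for the representative probe set, bars for its 95% interval (n = 3 arrays per group), crosses for the gene's other probe sets and colours for the role in the pathway. LSS lies farthest to the right of those with an interval above 0, at 0.50, and ABCA1 lies to the left at -0.35, with its second probe set at -0.53.

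In the steps from squalene to lanosterol 2 genes were measured, LSS and SQLE. LSS, the cyclase that makes lanosterol (probe set 202245_at), stood at 9.39, 9.60 and 9.32 on control arrays 1 to 3 and at 9.91, 10.20 and 9.70 on LPS arrays 1 to 3. All LPS values lay above all controls, and the difference was 0.50, or 1.42-fold (SE 0.12, 95% interval 0.24 to 0.76, limma adjusted p = 0.142). A second LSS probe set gave 0.34 (adjusted p = 0.180), again without overlap, and the dimmest gave 0.05. SQLE, the squalene epoxidase (209218_at), stood at 10.24, 10.40 and 10.10 in controls and 10.63, 10.75 and 10.41 after LPS. The groups were separated by the small gap between control 2 and LPS 3, with a difference of 0.35, or 1.27-fold (SE 0.11, adjusted p = 0.344). All 4 SQLE probe sets lay above 0, and 3 of them had no overlap between groups.

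Between lanosterol and cholesterol, HSD17B7, a sterol ketone reductase (220081_x_at), stood at 9.33, 9.55 and 9.40 in controls and 9.76, 9.78 and 9.70 after LPS. Its groups did not overlap, and the difference was 0.32, or 1.25-fold (SE 0.089, 95% interval 0.13 to 0.51, adjusted p = 0.241). HSD17B7 has this 1 probe set, whose suffix _x_at marks possible cross-hybridisation. DHCR7, a reductase of the final steps to cholesterol (201790_s_at), stood at 8.70, 8.96 and 8.69 in controls and 9.08, 9.09 and 8.88 after LPS. LPS 3 was below control 2, and the difference was 0.23 (SE 0.097, adjusted p = 0.556). The other DHCR7 probe set gave 0.27 with no overlap (adjusted p = 0.327).

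MSMO1, the sterol methyl oxidase (209146_at), stood at 9.83, 10.54 and 10.16 in controls and 10.38, 10.49 and 10.38 after LPS. The LPS values lay within the range of the controls, which spanned 0.71, and the difference was 0.24 (SE 0.14, adjusted p = 0.722), or 0.07 without control 1 and 0.42 without control 2. TM7SF2, a sterol reductase (210130_s_at), was the member of this group below 0: it stood at 8.15, 8.11 and 7.99 in controls and 7.94, 8.003 and 7.79 after LPS. The difference was -0.17 (SE 0.081, adjusted p = 0.620), with an overlap of control 3 and LPS 2. EBP, the sterol isomerase, was separated between groups by a small margin, at 9.91 to 9.95 in controls and 9.97 to 10.13 after LPS, with a difference of 0.12. The other EBP probe sets gave 0.08, 0.08 and -0.10, all with overlapping groups. The dehydrogenase NSDHL and the desaturase SC5D gave 0.03 and 0.06, and the adjusted p of EBP, NSDHL and SC5D ran from 0.811 to 0.958.

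**Figure D2:**
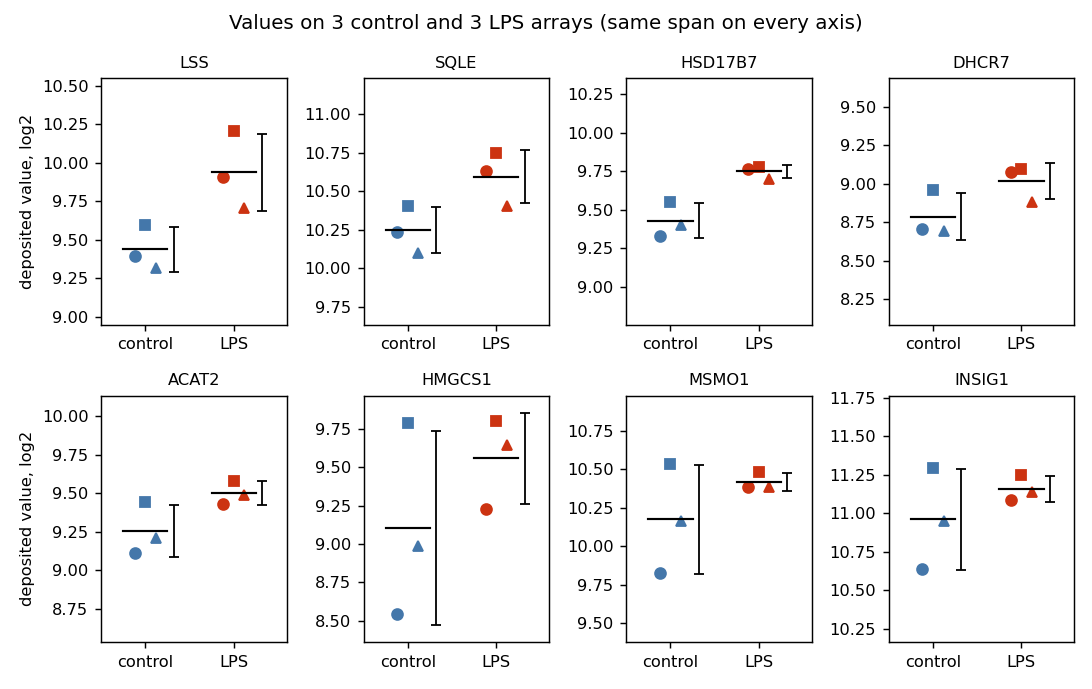
Deposited values (y axis, log2, the same span in each panel) of 8 genes on control arrays (blue) and LPS arrays (red), with circles, squares and triangles for replicates 1, 2 and 3, a line for the mean and a bar for the SD (n = 3). LSS, SQLE and HSD17B7 have no overlap between groups, while the control values of HMGCS1 span 1.24 and cover most of its LPS values.

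In the steps that lead to isoprenoid pyrophosphates, 5 of 7 genes lay above 0. ACAT2, the cytosolic thiolase that joins acetyl-CoA units (209608_s_at), stood at 9.11, 9.44 and 9.21 in controls and 9.43, 9.58 and 9.49 after LPS. LPS 1 was just below control 2, and the difference was 0.25 (SE 0.099, adjusted p = 0.530). HMGCS1, the synthase of hydroxymethylglutaryl-CoA (205822_s_at), stood at 8.54, 9.78 and 8.98 in controls and 9.23, 9.80 and 9.64 after LPS. Its controls spanned 1.24, more than the difference of 0.45 (SE 0.23, adjusted p = 0.663), and its other probe set gave 0.27. The HMGCS1 difference was 0.17 without control 1 and 0.79 without control 2. PMVK, the phosphomevalonate kinase (203515_s_at), had the opposite direction: 10.06, 10.10 and 10.10 in controls and 9.96, 9.85 and 10.00 after LPS. Its groups did not overlap, and the difference was -0.15 (SE 0.087, adjusted p = 0.731). Mevalonate kinase MVK and the decarboxylase MVD gave 0.03 each, the isomerase IDI1 gave 0.13 and the farnesyl pyrophosphate synthase FDPS gave -0.03.

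The regulators of the pathway differed by less than the spread between their arrays. SREBF2, which encodes SREBP2 and carries the sterol element letters shown above (201247_at), stood at 8.70, 8.64 and 8.61 in controls and 8.76, 9.05 and 8.41 after LPS. The LPS arrays lay on both sides of the controls, with a difference of 0.09 and a 95% interval from -0.18 to 0.36. SREBF1, which encodes SREBP1 (202308_at), stood at 8.07, 7.76 and 7.94 in controls and 7.85, 7.91 and 7.81 after LPS, a difference of -0.07. All its LPS values lay inside the control range. SCAP, the escort of the SREBPs (212329_at), stood at 8.87, 8.39 and 8.54 in controls and 8.79, 8.70 and 8.58 after LPS, a difference of 0.09, also with every LPS value inside the control range.

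INSIG1, a retention protein that is itself an SREBP target (201626_at), stood at 10.64, 11.29 and 10.95 in controls and 11.09, 11.25 and 11.14 after LPS. Its difference was 0.20 (SE 0.14, adjusted p = 0.783), or 0.04 without control 1 and 0.36 without control 2, and its 3 probe sets all lay above 0 with overlapping groups. INSIG2 (209566_at) stood at 7.34, 7.61 and 7.42 in controls and 7.50, 7.55 and 7.52 after LPS, a difference of 0.07. In both INSIG genes the 3 LPS values lay between those of control 1 and control 2. None of the 5 regulators passed the test, with adjusted p from 0.783 to 0.919. Of the fatty acid enzymes, the desaturase SCD gave 0.03, the desaturase FADS2 gave -0.07 at a level of 6.65, below the median of all genes at 6.79, and the fatty acid synthase FASN gave 0.26 with an SE of 0.21. The FASN value was 0.51 without control 1, -0.0058 without control 2, 0.12 without LPS 2, 0.44 without LPS 3 and 0.04 with array set, a grouping of the arrays by added controls, as a block.

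Among the sterol transporters, ABCA1, the pump that exports cholesterol to apolipoproteins, was lower after LPS. By its brightest probe set (203505_at) it stood at 7.83, 7.96 and 7.88 in controls and 7.39, 7.72 and 7.53 after LPS. Every LPS value lay below every control value, and the difference was -0.35 (SE 0.087, 95% interval -0.53 to -0.16, adjusted p = 0.160), a level 1.27-fold higher in controls. By its second probe set (203504_s_at) it stood at 7.69, 7.74 and 7.62 in controls and 6.94, 7.41 and 7.11 after LPS. This probe set passed the limma test: ABCA1 fell by 0.53 (SE 0.099, adjusted p = 0.0423), a level 1.45-fold higher in controls, and it was the 1 called among the 61 probe sets of the 27 genes (1.64%), where 0.264% of all 54613 probe sets were called. The call did not hold without control 2 (adjusted p = 0.205), control 3 (0.183), LPS 1 (0.228) or LPS 3 (0.0986), and the difference then ran from -0.56 to -0.43. It was also lost with filters on dim probe sets (0.0731 and 0.0672) and with no intensity trend (0.0719). The dimmer ABCA1 probe sets gave 0.07 and 0.06. NPC1, which moves cholesterol out of lysosomes (202679_at), stood at 7.65, 7.81 and 7.80 in controls and 7.90, 7.86 and 7.80 after LPS, a difference of 0.10 (adjusted p = 0.806) with overlapping groups. STARD4, a cytosolic sterol carrier, also gave 0.10.

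Of 49 further genes of the pathway listed by function, 41 were measured and 0 passed the test. A difference above 0 was found in 22 (53.7%, against 50.8% of all genes and 54.7% of those above the median level). The median over the 41 was 0.003, and 39 of them lay above the median level of all genes. At an unadjusted p under 0.05 there were 6 higher (14.6%, against 4.97% of all genes and 8.1% of those above the median level) and 2 lower (4.88%, against 4.59% of all genes). The 2 lower were ABCG1 and MYLIP, which like ABCA1 are known targets of liver X receptors. ABCG1, an exporter of cholesterol to lipoproteins (204567_s_at), stood at 8.02, 7.47 and 7.61 in controls and 7.25, 7.33 and 7.06 after LPS. Its groups did not overlap, and the difference was -0.49 (SE 0.12, adjusted p = 0.142), a level 1.40-fold higher in controls, and 3 of its 4 probe sets were separated in this direction. MYLIP by its brightest probe set gave -0.21 (adjusted p = 0.432), and 5 of its 6 probe sets had every LPS value below every control value. Of all probe sets 6.38% did, but the 6 read 1 gene in the same samples, so these shares cannot be weighed against each other. Of the MYLIP probe sets, 228098_s_at passed the limma test: MYLIP stood at 7.61, 7.75 and 7.59 in controls and 7.13, 7.35 and 7.10 after LPS, and fell by 0.46 by this probe set (SE 0.081, adjusted p = 0.0312). It was the 1 called among the 106 probe sets of these further genes (0.943%, against 0.264% of all probe sets). That call was kept without control 1 (adjusted p = 0.0212) and did not hold without any other array, with adjusted p from 0.0790 to 0.199, nor with filters on dim probe sets (0.0511 and 0.0501). The list of sterol transport and liver X receptor genes that holds ABCG1 and MYLIP had 5 of its 10 measured genes above 0 and 5 below, with a median of 0.0087. In 8 of these 10 genes the groups overlapped. ABCG1 and MYLIP were set beside ABCA1 after their values were seen. Other known targets of these receptors did not fall alike: LPCAT3 gave 0.03, SCD 0.03, FASN 0.26 and SREBF1 -0.07. Whether liver X receptor targets were lower as a group was not tested.

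**Figure D3:**
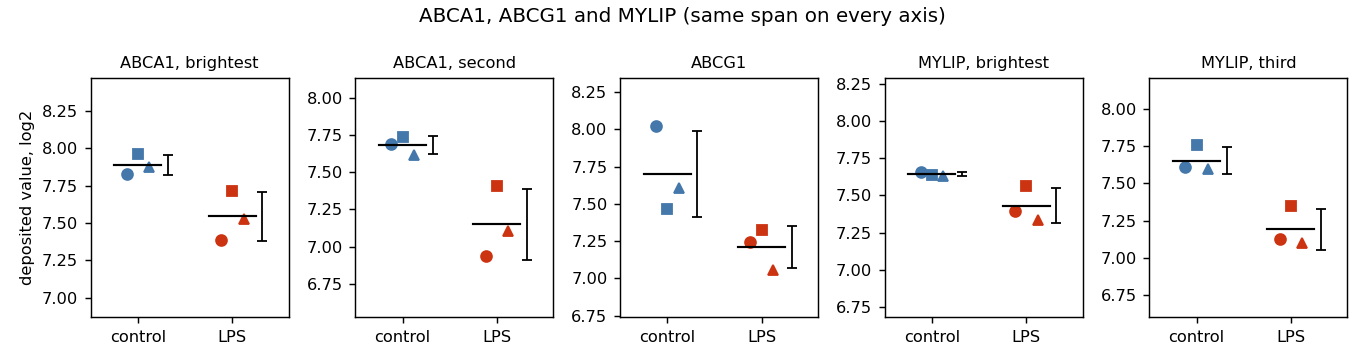
Deposited values (y axis, log2, the same span in each panel) of ABCA1 by its brightest and second probe sets, ABCG1 by its brightest, and MYLIP by its brightest and by the one that passed, on control (blue) and LPS (red) arrays, with circles, squares and triangles for replicates 1, 2 and 3, lines for means and bars for the SD (n = 3). In all 5 panels the LPS values lie below the control values.

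The other genes named from these lists were higher after LPS without passing, except RNF139. SCARB1, the lipoprotein receptor that exchanges cholesterol with HDL, gave 0.37 (adjusted p = 0.281) with overlapping groups. PGGT1B, a subunit of the geranylgeranyl transferase, gave 0.25, and PDSS1, which makes the ubiquinone side chain, gave 0.21, both without overlap. MBTPS2, a protease that releases SREBPs, gave 0.21 without overlap, and RNF139, a ubiquitin ligase of the endoplasmic reticulum, gave -0.09. GPAM, the first enzyme of glycerolipid synthesis, gave 0.19 and ACLY, which supplies acetyl-CoA, gave 0.18, both without overlap. POR, the electron donor of sterol demethylation, gave 0.19, and ERG28, a scaffold of the demethylation complex, gave 0.17, both with overlap. Their adjusted p ran from 0.281 to 0.887.

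Cholesterol genes also varied between the control arrays. The range of the 3 controls exceeded the size of the LPS difference in 19 of the 27 genes (70.4%). That held for 81.4% of all genes and 77.5% of those above the median level. The median range of the 27 genes was 0.28, against 0.14 over all genes and 0.17 over those above the median level. Control 1 was the lowest of the 6 arrays in 13 of the 27 genes (48.1%, against 14.3% of all genes), and control 2 was the highest in 11 (40.7%, against 19% of all genes). The order control 1, control 3, control 2 from low to high was found in 16 of the 27 genes (59.3%), HMGCS1, IDI1, MSMO1 and INSIG1 among them, and in 18.1% of all genes. FASN, SCAP and SREBF1 ran the other way: FASN stood at 9.61, 8.58 and 9.14 in controls 1 to 3, and each of these genes was lowest on control 2 of all 6 arrays. On the LPS arrays, the median deviation of the 27 genes from their own means was 0.02, 0.06 and 0.02, against -0.15, 0.06 and -0.07 on controls 1 to 3. Control 2 stood level with LPS 2.

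**Figure D4:**
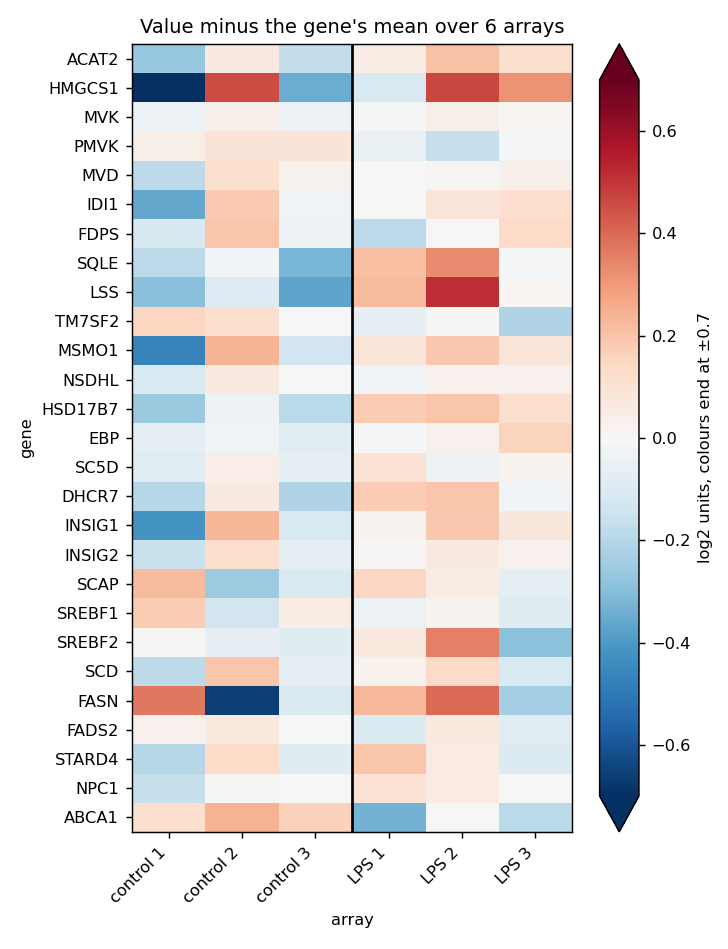
Value of each of the 27 genes on each array minus the gene's mean over the 6 arrays, in log2 units, red above and blue below. Control 1 is blue for most synthesis enzymes and INSIG1, control 2 is red for many of the same genes, and FASN has the opposite colours on these arrays.

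By 18 probe sets for added hybridisation controls the arrays parted into 2 sets, with control 1, LPS 1 and LPS 2 at 10.20 to 10.29 (set A) and control 2, control 3 and LPS 3 at 10.51 to 10.61 (set B). The median LPS difference of the 27 genes was 0.19 among set A arrays and 0.02 among set B arrays, which rest on a lone control and a lone LPS array, respectively. HMGCS1 gave 0.97 and 0.26, MSMO1 gave 0.61 and 0.03, and INSIG1 gave 0.53 and 0.02 within sets A and B. LSS gave 0.66 and 0.25, SQLE 0.45 and 0.15, HSD17B7 0.44 and 0.22, and ABCA1 by its second probe set -0.52 and -0.57. With array set as a block in the fit, LSS rose by 0.45 (adjusted p = 0.0162), HSD17B7 rose by 0.33 (adjusted p = 0.0329), ABCA1 fell by 0.34 by its brightest probe set (adjusted p = 0.0401) and ABCG1 fell by 0.61 (adjusted p = 5.13e-05). That fit called 734 of the 54613 probe sets tested, against 144 in the fit without the block, so calls were more frequent in general. Without control 1, 10 of the 16 synthesis enzymes lay above 0 with a median of 0.05. ABCG1 gave -0.74 and -0.48 within sets A and B, and -0.33 without control 1 (limma adjusted p = 0.120). It was called in no fit that left out 1 array, with adjusted p from 0.109 to 0.415.

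For 23 of the 27 genes (85.2%, against 98.9% of all genes) the 95% interval of the representative probe set lay within a 1.5-fold change in either direction. ABCA1 is among them, but the interval of its second probe set, from -0.74 to -0.32, reaches past that size. The exceptions were HMGCS1, LSS, FASN and SQLE, whose upper limits were 0.95, 0.76, 0.70 and 0.59. The number of arrays limits this precision. Across the arrays as a whole, correlations over all probe sets ran from 0.992 to 0.997, no values were identical between any pair, and the array medians ran from 6.42 to 6.47. Markers of the labelled cell type were present, with 7 measured B cell genes at mean levels from 8.88 to 13.02. Markers of monocytes, T and NK cells, and erythroid cells and platelets lay between 5.89 and 6.69, below the median of all genes, and those of stroma and epithelium between 5.79 and 7.99, the highest being COL1A1. Of the 7 B cell markers, 6 lay below 0 after LPS with a median of -0.20 and 0 passed the test. Their part in the differences above was not tested.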

How the data were processed

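RNA of 3 control and 3 LPS samples of BL-2 was measured on Affymetrix arrays after biotin labelling by in vitro transcription, per the labels' protocols. The deposited table holds 1 value per probe set and array, taken as log2 from its range; background correction, summary and normalisation are not given in the sources used here, and detection calls were not used. Of 54675 probe sets, 62 Affymetrix controls were left out. Of the 54613 tested, 41091 had 1 gene symbol, 1801 several and 11721 none, by the platform annotation; 41037 matched the RefSeq gene table (GRCh38.p14) and 0 changed symbol.

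Groups were compared in R 4.3.3 with limma 3.58.1 (group as the only term, moderated with an intensity trend, two-sided, Benjamini-Hochberg over all tested probe sets, threshold 0.05; n = 3 per group). The fit was tested on simulated data with planted differences of 0.6 and 1, of which 74% and 93% were called. Every difference of the 27 genes was smaller, so the test does not show how often differences of their size would be called.

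The genes, lists and array sets were chosen with earlier results of these data known. Named are all members, called genes of the other lists, the 2 with the smallest unadjusted p in each of those lists, and MYLIP, chosen after its values were seen. Array values are printed for the 12 members with the smallest p and for the regulators. Alternatives were other normalisations, filters, variance priors, array weights, thresholds, probe set choices, blocks and leaving out each array.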

Additional observations from a re-analysis of the deposited data

How the results depend on the processing

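The main count of 0 members called was 2 with a replicate block (LSS and ABCA1), 1 with array weights (LSS) and 3 with array set as a block. Those fits also called more of the 54613 probe sets: 498, 309 and 734, against 144 in the main fit. The share of all genes called in those fits is not given here. The count of members was 0 under every other alternative run, including without any 1 array. The count over other genes of the pathway, 0, was 1 with a replicate block, 1 with quantile normalisation and 1 with array set as a block, ABCG1 in each case. The count over all probe sets, 144, was 498 with a replicate block, 292 with quantile normalisation, 309 with array weights, 265 at a threshold of 0.1, 734 with array set as a block, and 10 to 374 without single arrays. Deviations of same-numbered arrays from their group means correlated by 0.44, -0.04 and 0.23, and control 2 correlated best with LPS 3. Since 1 pair was not above 0.1, the numbers were not taken to pair the samples. That pair, control 2 and LPS 2, lies across array sets B and A, while the other pairs each lie within a set. The rule therefore cannot tell whether the samples were paired, and the main fit leaves that open. The median over the members, 0.09, was 0.19 within array set A, 0.02 within array set B, 0.06 with quantile normalisation, and 0.04 to 0.13 without single arrays. Filters on dim probe sets raised the adjusted p of ABCA1 by its second probe set to 0.0731 and 0.0672, and that of the MYLIP probe set that passed to 0.0511 and 0.0501; the cause was not tested. Without an intensity trend the ABCA1 value was 0.0719. Probe sets dimmer than the median may understate changes.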
